A study of Mus musculus with 11 samples.

Results

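The 8 genes described here are those of cytosolic nucleic acid sensing, the relay that leads from foreign or misplaced RNA and DNA in the cytosol to interferon. The rule names them by their place in this pathway and uses no measured value, though it was set with earlier results of these data known. Ddx58 and Ifih1 are the RNA sensors, Mavs and Tmem173 the adaptors, Tbk1 and Ikbke the kinases, and Irf3 and Irf7 the transcription factors. All 8 were found among the 770 genes of the table, and all 8 were among the 657 genes tested, those whose mean reached 20 normalized counts.

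In this pathway, RIG-I (encoded by Ddx58) and MDA5 (encoded by Ifih1) bind viral or other unusual RNA and signal through MAVS on mitochondria. Cytosolic DNA is read by the enzyme cGAS, whose product cGAMP binds STING (encoded by Tmem173) at the endoplasmic reticulum. Both routes meet at the kinases TBK1 and IKKε (encoded by Ikbke), which phosphorylate IRF3 and IRF7. These factors switch on type I interferon genes, and interferon in turn raises transcription of Ddx58, Ifih1 and Irf7.

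The lungs came from female BALB/c mice that had received 4T1-luc2 cells in the mammary fat pad on day 0, at an age of 8 weeks. 4T1-luc2 is a mouse mammary carcinoma line that carries luciferase and spreads to the lung. Of the 11 mice 6 received antiChemR23, an agonist antibody against the receptor ChemR23, and 5 received hIgG1, the isotype control. Both antibodies were given at 1 mg/kg into the peritoneum, 3 times a week for 3 weeks, between day 7 and day 28. The primary tumor was removed on day 13 in both groups. No mouse without a tumor or without an antibody was analysed here, so that levels can be set only between treatments. Lungs were taken at euthanasia and dissociated before RNA extraction. The sources used here do not give the day or the metastatic load for each mouse. A difference in either cannot be told apart from treatment. The series text states other group sizes than the sample labels, and the labels were followed. One lung per mouse was measured by nCounter, which counts barcoded probes on RNA without amplification. In whole lung RNA, fewer cells of a type and less RNA per cell cannot be told apart. The same holds for epithelial transcripts of the lung and of carcinoma cells in it.

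Each lung held an estimated 590878 to 680747 raw counts. The lowest value in a lung lay between 8.85 and 16.2 normalized counts and was shared by 33 to 97 genes, and none of the 8 sensing genes was at it in any lung. Levels are given as log2 normalized counts and are compared between lungs only, since probes of different genes capture RNA with different efficiency. Endothelial transcripts summed to 17995 to 22029 normalized counts in antiChemR23 lungs and 17887 to 19926 in hIgG1 lungs, and those of Epcam, Cdh1 and Muc1, the 3 of 11 listed epithelial markers that the table holds, to 5150 to 6320 in antiChemR23 lungs and 4543 to 5545 in hIgG1 lungs.

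Between treatments, none of the sensing genes differed by limma after adjustment at a threshold of 0.05. Of the 657 tested genes 0 passed, which is 0%, and the smallest adjusted p among the 8 was 0.483. An exact Mann-Whitney test per gene also left 0 after adjustment, with 41 genes at an unadjusted p under 0.05, among them Tmem173 and no other sensing gene. By limma at an unadjusted p under 0.05 there were 65 tested genes, or 9.89%, and 1 of the 8 sensing genes, Ikbke. It was among the 18 genes (2.74%) that were lower in antiChemR23 lungs, while the 47 (7.15%) that were higher held none of the 8. The mean was lower in antiChemR23 lungs for 6 of the 8 sensing genes, against 280 of all tested genes (42.6%). The median log2 difference was -0.09 over the 8 and 0.03 over all tested genes. No sensing gene had groups that did not overlap, as 7 of the tested genes did (1.07%).

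**Figure D1:**
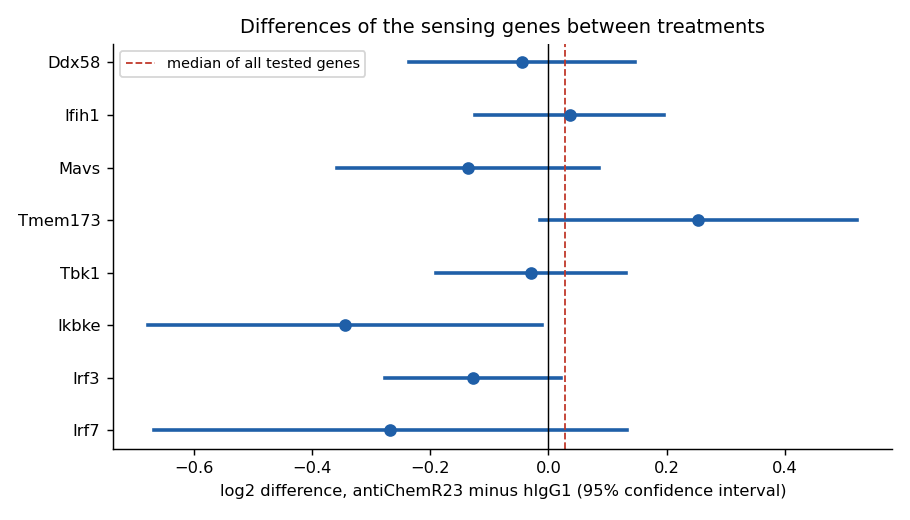
Difference of the 8 sensing genes between treatments on the log2 scale, antiChemR23 minus hIgG1, from limma. Points are estimates over 6 antiChemR23 and 5 hIgG1 lungs, bars are 95% confidence intervals, and the dashed line is the median of all 657 tested genes. Of the 8 intervals, 7 cross 0, and that of Ikbke reaches up to -0.01.

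Ddx58 showed nearly the same level in both groups. The values in antiChemR23 lungs were 9.78, 9.80, 9.64, 9.43, 9.45 and 9.61 log2 normalized counts (mice 9, 10, 13, 14, 15 and 16). In hIgG1 lungs they were 9.51, 9.54, 9.78, 9.74 and 9.76 (mice 3, 4, 6, 7 and 8). The range of antiChemR23 lungs enclosed that of hIgG1 lungs at both ends. The difference was -0.05 ± 0.09 (SE), with a 95% interval of -0.24 to 0.15 (limma adjusted p = 0.901).

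Ifih1 likewise differed little. It measured 8.77 at the lowest, 8.93 at the median and 9.02 at the highest in antiChemR23 lungs, against 8.77, 8.77, 8.96, 8.98 and 8.88 in hIgG1 lungs. Antibody groups overlapped over most of this range. The difference was 0.04 ± 0.07 (SE), with a 95% interval of -0.12 to 0.20 (limma adjusted p = 0.920).

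Both sensor genes are themselves known targets of interferon, and their start regions are shown for this reason. The letters searched, on both strands, were GAAANNGAAA, the core of the interferon-stimulated response element, and GAAANGAAA, with 1 base fewer between the repeats and chosen after the sequences had been read. Windows ran over 250 bases before and 50 bases from the start site in RefSeq (GRCm38.p6). Of 32851 mouse promoters, 3.44% held the first and 3.17% the second. In the lines that follow, printed 5′ to 3′ on the strand of the gene, capitals mark the matched letters.
Ddx58 before its start, chr4:40239826-40240075, minus strand: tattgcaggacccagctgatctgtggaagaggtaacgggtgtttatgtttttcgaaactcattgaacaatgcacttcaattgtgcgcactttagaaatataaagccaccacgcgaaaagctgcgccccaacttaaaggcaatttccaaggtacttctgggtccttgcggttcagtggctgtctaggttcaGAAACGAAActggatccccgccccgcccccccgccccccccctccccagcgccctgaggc
Ddx58 around its start, chr4:40239804-40239833, minus strand: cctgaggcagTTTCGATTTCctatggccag
Ifih1 after its start, chr2:62646206-62646235, minus strand: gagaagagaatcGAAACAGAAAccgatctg
The match before the Ddx58 start begins at position -60 and has 1 base between the repeats. The match across the bases after that start begins at position 3 and reads on the opposite strand. The Ifih1 match begins at position 33. Of the 8 genes 7 had a window in the table, and Ddx58 and Ifih1 alone among these 7 held either set of letters.

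The adaptors moved to opposite sides of the control mean, neither past the adjusted threshold. Mavs, which carries the signal of both RNA sensors, measured 7.30, 7.41, 7.08, 7.23, 7.01 and 7.35 log2 normalized counts in antiChemR23 lungs, against 7.44, 7.57, 7.35, 7.31 and 7.16 in hIgG1 lungs. The highest 2 lungs were hIgG1 and the lowest 2 antiChemR23, with overlap between. Its log2 difference was -0.14 ± 0.10 (SE), with a 95% interval of -0.36 to 0.08 (limma adjusted p = 0.644).

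Tmem173, the STING gene of the DNA branch, had the largest positive difference of the 8. It gave 43.3, 49.1, 53.8, 42.4, 41.4 and 48.8 normalized counts in antiChemR23 lungs, against 39.4, 34.8, 34.9, 39.7 and 46.1 in hIgG1 lungs. Of the 5 hIgG1 lungs 4 lay below every antiChemR23 lung, and hIgG1 mouse 8 lay within the antiChemR23 range. The mean was 5.53 ± 0.15 in antiChemR23 lungs and 5.28 ± 0.17 in hIgG1 lungs on the log2 scale (SD, n = 6 and 5). This corresponds to a 1.19-fold level and a log2 difference of 0.25 ± 0.12 (SE), with a 95% interval of -0.01 to 0.52 (limma unadjusted p = 0.0621, adjusted p = 0.495). Depth limited this gene most. With an estimated 35.0 to 52.0 raw counts per lung, the SD expected from counting alone was 0.217, and the measured SD within groups was 0.157.

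The kinases also differed in pattern. Tbk1, which is expressed in most cell types, had the smallest SD of the 8 over the 11 lungs, 0.0914, and 5.18% of tested genes had a smaller one. Its values were 8.02 at the lowest, 8.12 at the median and 8.31 at the highest in antiChemR23 lungs, against 8.10, 8.25, 8.15, 8.25 and 8.07 in hIgG1 lungs. All hIgG1 lungs lay within the antiChemR23 range. The difference was -0.03 ± 0.07 (SE), with a 95% interval of -0.19 to 0.13 (limma adjusted p = 0.930).

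Ikbke, the inducible relative of Tbk1 found mainly in immune cells, had the largest negative difference of the 8. It gave 48.1, 41.9, 43.4, 53.6, 42.4 and 70.9 normalized counts in antiChemR23 lungs, against 66.0, 51.8, 59.5, 67.8 and 68.7 in hIgG1 lungs. Of the 6 antiChemR23 lungs 4 lay below every hIgG1 lung, mouse 14 lay just above the lowest of these, and mouse 16 was the highest of all 11. The mean was 5.62 ± 0.29 in antiChemR23 lungs and 5.96 ± 0.17 in hIgG1 lungs on the log2 scale (SD, n = 6 and 5). The hIgG1 level was 1.27-fold that of antiChemR23 lungs, a log2 difference of -0.34 ± 0.15 (SE) with a 95% interval of -0.68 to -0.01. It had an unadjusted p of 0.0437 and an adjusted p of 0.483 by limma. The unadjusted call rested on single lungs: it held in 3 of the 11 fits with 1 lung left out (without hIgG1 mouse 4, antiChemR23 mouse 14 or antiChemR23 mouse 16) and was lost in the other 8. It was lost also by the exact Mann-Whitney test (p = 0.126) and held in the other 8 settings. The difference was -0.45 without antiChemR23 mouse 16, and over all alternatives it lay between -0.45 and -0.29 with an adjusted p of 0.247 to 0.648. The gene was read at an estimated 41.0 to 72.0 raw counts per lung.

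Ikbke levels went with T cell markers over the 11 lungs (Pearson r = 0.68) and against epithelial markers (r = -0.63), given as descriptions over lungs that share depth and scaling. All 11 tested T cell markers had a lower mean in antiChemR23 lungs, and 0 of the 11 passed at an unadjusted p under 0.05. Their summed counts were 519 to 1007 in antiChemR23 lungs, with mouse 16 the highest, and 497 to 1630 in hIgG1 lungs, with mouse 8 the highest. The lower direction rested on that mouse: without hIgG1 mouse 8 the mean was higher in antiChemR23 lungs for 8 of the 11 markers and lower for 3, and their median log2 difference was 0.05, against -0.20 with all lungs. The part of T cell content in the Ikbke difference was not tested.

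**Figure D2:**
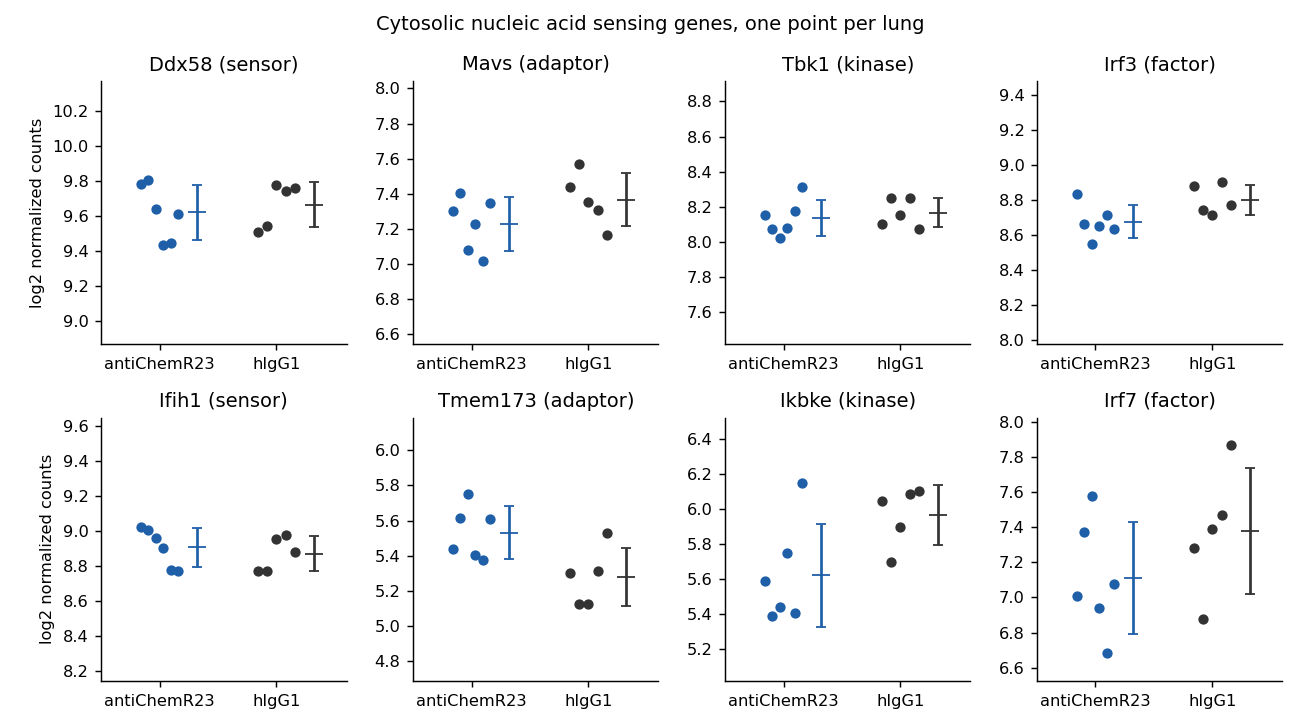
Log2 normalized counts of the 8 sensing genes, with 1 point per lung in order of mouse number (6 antiChemR23, left, and 5 hIgG1, right) and the mean with SD beside the points. Every panel spans 1.5 log2 units, so that spreads can be compared between genes; the widest is that of Irf7 and the narrowest that of Ifih1 and Tbk1.

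The factors both had a lower mean in antiChemR23 lungs. Irf3, which is present before any stimulus, measured 8.83, 8.66, 8.55, 8.65, 8.71 and 8.64 log2 normalized counts in antiChemR23 lungs, against 8.88, 8.74, 8.71, 8.90 and 8.77 in hIgG1 lungs. Of the antiChemR23 lungs 4 lay below every hIgG1 lung, and mouse 9 lay near the top. The difference was -0.13 ± 0.07 (SE), with a 95% interval of -0.28 to 0.02 (limma unadjusted p = 0.0883, adjusted p = 0.495). Over all alternatives it stayed between -0.16 and -0.10.

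Irf7, the factor that interferon induces and that drives the later wave of interferon genes, varied most between lungs. It gave 129, 166, 191, 123, 103 and 135 normalized counts in antiChemR23 lungs, against 156, 118, 168, 177 and 234 in hIgG1 lungs. The lowest lung was antiChemR23 mouse 15 and the highest hIgG1 mouse 8, a 2.28-fold range. The log2 SD over 11 lungs was 0.349, larger than that of 78.5% of tested genes, and the SD within groups was 2.97 times that expected from counting. The mean was 7.11 ± 0.32 in antiChemR23 lungs and 7.38 ± 0.36 in hIgG1 lungs (SD, n = 6 and 5). The difference of -0.27 ± 0.18 (SE) had a 95% interval of -0.67 to 0.13 (limma adjusted p = 0.587), and was smaller in size than the SD within groups, 0.337. Leaving out 1 lung moved it between -0.394, without hIgG1 mouse 4, and -0.145, without hIgG1 mouse 8.

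The bases before the Irf7 start are shown for comparison with those of Ddx58. The Irf7 window held neither set of letters, as was so for Mavs, Tbk1, Ikbke and Irf3.
Irf7 before its start, chr7:141266425-141266674, minus strand: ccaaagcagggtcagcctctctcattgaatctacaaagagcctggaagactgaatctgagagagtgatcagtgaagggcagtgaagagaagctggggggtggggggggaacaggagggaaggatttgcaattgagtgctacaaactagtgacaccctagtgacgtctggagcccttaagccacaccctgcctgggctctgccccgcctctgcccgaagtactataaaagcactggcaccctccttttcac
No match says only that these letters are not in the window.

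The 5 tested genes whose pattern over the 11 lungs was most like that of Irf7 were Oasl1 (r = 0.876), Zbp1 (0.862), Oas3 (0.857), Socs3 (0.810) and Cd244 (0.750). Oasl1 and Oas3 belong to the oligoadenylate synthetase family, Zbp1 senses Z-form nucleic acid, Socs3 is a feedback inhibitor of cytokine signaling, and Cd244 is a receptor of natural killer cells and T cells. With group means removed, r was between 0.692 for Cd244 and 0.874 for Oas3. For each of these 6 genes antiChemR23 mouse 13 and hIgG1 mice 7 and 8 were above the mean of 11 lungs. Below it for each were antiChemR23 mice 9, 14 and 15 and hIgG1 mouse 4. The 5 genes were chosen for their likeness to Irf7, so shared high and low lungs and a shared direction are no separate result. None of the 5 differed between treatments at an adjusted p under 0.05. For all 5 the mean was lower in antiChemR23 lungs in the fit to all lungs, as for 42.6% of all tested genes. For Oas3 this direction did not hold without hIgG1 mouse 8 (0.00342) or without antiChemR23 mouse 15 (0.0062).

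**Figure D3:**
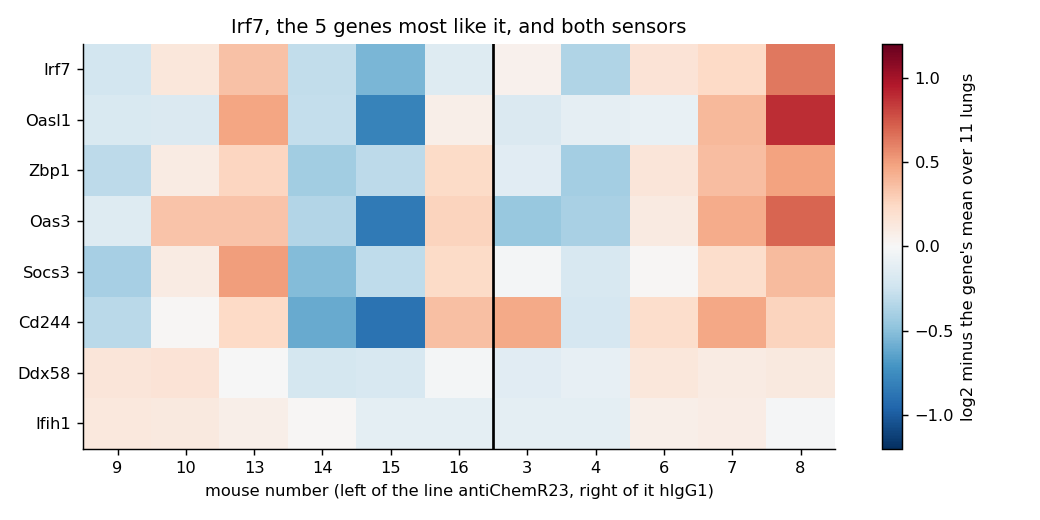
Log2 normalized counts of Irf7, the 5 genes most like it and both RNA sensors, each minus its mean over the 11 lungs (colour scale), by mouse, with antiChemR23 left of the line and hIgG1 right of it. Irf7 is lowest in antiChemR23 mouse 15 (6.68) and highest in hIgG1 mouse 8 (7.87), and the sensors vary less than the other 6 genes.

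Of 29 tested interferon-stimulated genes, 14 had an r above 0.5 with Irf7, against 50 of 627 other genes. For Ddx58 these were 13 of 29 and 69 of 627, for Ikbke 8 and 90, for Ifih1 4 and 37, and for Tmem173 3 and 59. For Mavs they were 1 and 44, for Tbk1 0 and 44, and for Irf3 0 and 32. The median r with the 29 genes was 0.48 for Irf7, 0.45 for Ddx58, 0.38 for Ifih1, 0.36 for Ikbke, 0.23 for Tmem173, 0.04 for Irf3, -0.04 for Tbk1 and -0.07 for Mavs. With the 627 other genes it was 0.05 for Irf7, 0.18 for Ddx58, 0.10 for Ifih1, 0.06 for Ikbke, 0.16 for Tmem173, 0.02 for Irf3, 0.13 for Tbk1 and 0.04 for Mavs. The other genes are those off the list, and they still hold interferon targets, among them other members such as Ddx58, Ifih1 and Irf7. The lungs share scaling, and several lists share genes, so that all these values are descriptions.

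Among the 28 pairs of sensing genes, r over the 11 lungs was positive in 17 and ran from -0.538 to 0.727. Before adjustment 2 pairs had a permutation p under 0.05, and none did after adjustment over the 28. The highest was Ddx58 with Ifih1, at r = 0.727 (permutation p = 0.0169, adjusted p = 0.472) and rho = 0.709 (permutation p = 0.0177, adjusted p = 0.496). Without the 2 lungs farthest from the Ddx58 median r was 0.853 (exact permutation p = 0.00516, unadjusted), and with group means removed it was 0.782 (exact permutation p = 0.0137, adjusted p = 0.192). In antiChemR23 lungs alone r was 0.704 (exact permutation p = 0.131, adjusted p = 0.739), and r is given for no pair over the 5 hIgG1 lungs alone, since at least 6 lungs were asked for.

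Ddx58 with Irf7 gave r = 0.632 (permutation p = 0.0379, adjusted p = 0.531) and rho = 0.545 (permutation p = 0.0857, adjusted p = 0.697). Without the 2 lungs farthest from the Ddx58 median r was 0.388. With group means removed it was 0.626 (exact permutation p = 0.0537, adjusted p = 0.502), and 0.586 when the 2 lungs with the largest deviations of Ddx58 were also left out (exact permutation p = 0.133, unadjusted). In antiChemR23 lungs alone it was 0.577 (exact permutation p = 0.237, adjusted p = 0.739). Tmem173 with Irf3 gave r = -0.538 (permutation p = 0.0890, adjusted p = 0.598) and rho = -0.555 (permutation p = 0.0817, adjusted p = 0.697). Mavs with Tmem173 gave r = -0.482 (permutation p = 0.135, adjusted p = 0.598) and rho = -0.473 (permutation p = 0.149, adjusted p = 0.697). With group means removed these were -0.219 and -0.281, and in antiChemR23 lungs alone -0.699 and 0.173. Without the 2 farthest lungs they were -0.411 and -0.481, and with group means removed as well 0.193 and -0.484, so that the sign for Tmem173 with Irf3 did not hold.

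A pair outside this choice was Tmem173 with Irf7, singled out after the values had been seen. Over the 11 lungs r was 0.337 (permutation p = 0.310, adjusted p = 0.666) and rho 0.364 (permutation p = 0.274, adjusted p = 0.700). With group means removed, r was 0.882, with an exact permutation p of 0.000995 over all 86400 permutations within groups and an adjusted p of 0.0279 over the 28 pairs. In antiChemR23 lungs alone r was 0.928 (exact permutation p = 0.00139, the smallest that 6 lungs allow, adjusted p = 0.0389), and both genes put these 6 lungs in the same order (rho = 1, exact permutation p = 0.00278). Irf7 minus Tmem173, on the log2 scale and as a within-lung contrast whose size has no meaning between probes, was 1.57, 1.75, 1.83, 1.53, 1.31 and 1.47 in antiChemR23 lungs. It was 1.98, 1.75, 2.27, 2.16 and 2.34 in hIgG1 lungs. Only hIgG1 mouse 4 fell within the antiChemR23 range, and this contrast, chosen for its pattern, was given no test.

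The relation depended on the scaling and on single lungs. With lung medians set equal, the r with group means removed was 0.781 (adjusted p = 0.144, exact permutation test), and after quantile normalization it was 0.655 (adjusted p = 0.393). Without the 2 farthest lungs it was 0.725 (adjusted p = 0.433), and the SD of Tmem173 within groups did not exceed the SD of counting, as given above.

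**Figure D4:**
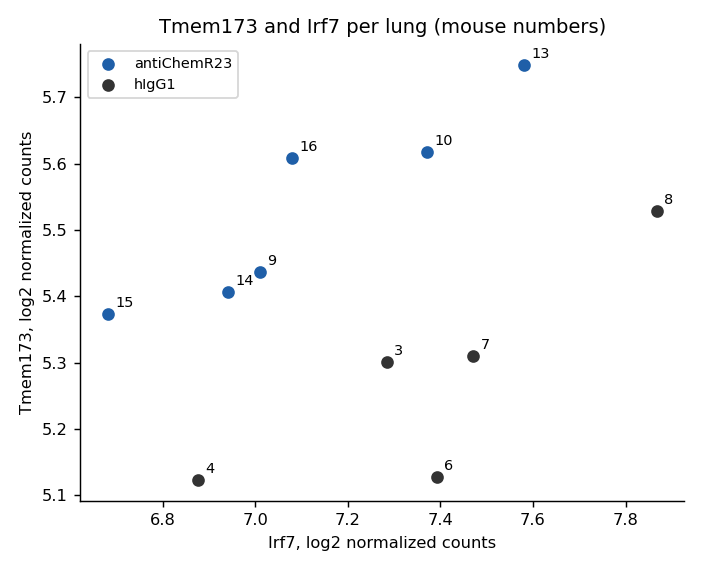
Log2 normalized counts of Tmem173 (vertical) and Irf7 (horizontal) in each lung, with mouse numbers, for 6 antiChemR23 and 5 hIgG1 lungs. Within antiChemR23 lungs both genes give the same order (rho = 1), and hIgG1 lungs lie lower in Tmem173 at a like level of Irf7.

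Other genes of the pathway were taken from lists by role. Of 10 tested genes listed as other nucleic acid sensors, the mean was higher in antiChemR23 lungs for 3 and lower for 7. Their median log2 difference was -0.11, and the 10 include Nlrp3, an inflammasome sensor rather than a nucleic acid sensor. Oas2, Oas3, Oasl1 and Ddx60, all among the 7, are also on the list of interferon-stimulated genes, so that the 2 lists are not separate. At an unadjusted p under 0.05 1 was lower, and 0 passed after adjustment. This was Oas2, an RNA-sensing oligoadenylate synthetase that is also on the list of interferon-stimulated genes. It measured 7.70 at the lowest, 8.34 at the median and 8.78 at the highest in antiChemR23 lungs, against 8.85, 8.75, 8.72, 9.11 and 8.98 in hIgG1 lungs. Of the antiChemR23 lungs mice 10 and 16 reached the hIgG1 range, and the other 4 lay below it. The log2 difference was -0.61 ± 0.20 (SE; limma unadjusted p = 0.00851, adjusted p = 0.399). Nlrp3 had a log2 difference of -0.33 (adjusted p = 0.495) and Oasl1 one of -0.33 (adjusted p = 0.587).

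Of 17 tested adaptors and regulators of the relay, the mean was higher for 11 and lower for 6, and 2 were higher and 0 lower at an unadjusted p under 0.05. These were Casp8, a protease of cell death pathways (log2 difference 0.17 ± 0.07, SE), and Cyld, a deubiquitinase that restrains this signaling (0.16 ± 0.07), both at a limma adjusted p of 0.483. Tnfaip3, another inhibitor of ubiquitin signals, had a difference of 0.10 (adjusted p = 0.624). The 13 genes listed for the NF-κB branch include the MAP kinase cascade genes Map3k1, Map3k7, Mapk8 and Mapk14. Of the 13 the mean was higher for 8 and lower for 5, and 1 was higher at an unadjusted p under 0.05. This was Map3k1 (0.18, adjusted p = 0.483), and no NF-κB subunit, inhibitor or IKK gene of the list was called. Rel (0.14) and Mapk8 (0.11) followed, with adjusted p values of 0.510 and 0.648. Of the 5 other Irf genes the mean was higher for 3 and lower for 2, with Irf8, a factor of myeloid and dendritic cell development, at 0.20 (unadjusted p = 0.0490, adjusted p = 0.483), Irf5 at 0.16 and Irf1 at -0.09. No gene of these lists passed after adjustment.

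At the end of the relay, the interferon genes themselves were hardly detected. Ifnb1, a direct target of IRF3, was at the lowest value of the lung in all 11 lungs. Ifna2 was at it in 10, Ifnl2 in 5, Ifna4 in 4 and Ifna1 in 2 lungs. The highest values of Ifna1, the least limited of the 5, were 23.5 normalized counts in antiChemR23 lungs and 27.1 in hIgG1 lungs, and none of the 5 was tested. Whether interferon transcripts differed was not detectable at this depth. Of the 4 tested receptor and signaling genes of the list, 3 had a higher mean and 1 a lower one. Ifnar2, a chain of the type I interferon receptor, was higher at an unadjusted p under 0.05 (0.14 ± 0.06, SE; limma adjusted p = 0.483). Its partner chain Ifnar1 had a difference of 0.14 (adjusted p = 0.557) and the kinase gene Jak1 one of 0.06 (adjusted p = 0.829).

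The 29 tested interferon-stimulated genes were split, with the mean higher in antiChemR23 lungs for 13 and lower for 16, and their median log2 difference was -0.05. At an unadjusted p under 0.05 0 were higher and 2 lower, Oas2 and Stat2, and 0 passed after adjustment. Stat2, a subunit of the factor that carries the interferon signal to the nucleus, measured 8.51 at the lowest, 8.55 at the median and 8.74 at the highest in antiChemR23 lungs, against 8.75, 8.62, 8.91, 8.78 and 8.91 in hIgG1 lungs. Of the hIgG1 lungs 4 lay above every antiChemR23 lung. The log2 difference was -0.21 ± 0.07 (SE; limma unadjusted p = 0.0144, adjusted p = 0.483). Usp18, which limits interferon receptor signaling, had a difference of -0.26 (adjusted p = 0.495).

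**Figure D5:**
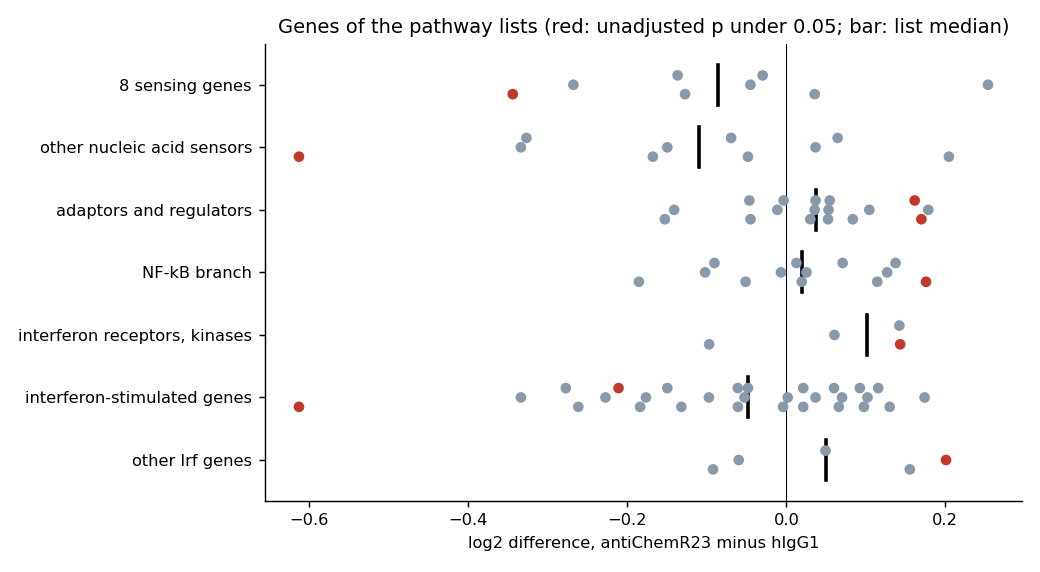
Log2 differences, antiChemR23 minus hIgG1, of the tested genes on each pathway list, 1 point per gene, with list medians as bars and genes at an unadjusted limma p under 0.05 in red. Oas2 (-0.61), Oas3, Oasl1 and Ddx60 appear on both the sensor list and the list of interferon-stimulated genes, and no gene drawn passed after adjustment.

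No marker of the cell types that could carry these genes passed after adjustment by limma, and the levels of several lists differed between lungs. Of 7 tested B cell markers all had a higher mean in antiChemR23 lungs, of which 4 passed before adjustment only, and their summed counts were 344 to 735 in antiChemR23 lungs and 291 to 404 in hIgG1 lungs. Neutrophil markers had a lower mean for 8 of 11 (5 of 11 without antiChemR23 mouse 14), with sums of 36953 to 163441 in antiChemR23 lungs and 75621 to 128624 in hIgG1 lungs. Macrophage and monocyte markers were split 7 higher and 5 lower, with sums of 3197 to 3895 in antiChemR23 lungs and 2778 to 3684 in hIgG1 lungs. Those of plasmacytoid dendritic cells, which are rich in Irf7, were split 3 and 3, with sums of 1031 to 1252 in antiChemR23 lungs and 982 to 1437 in hIgG1 lungs. Endothelial markers were higher for 5 of 6 and epithelial markers for 3 of 3. Whether the epithelial transcripts came from lung or from carcinoma cells was not tested. Irf7 went against epithelial (r = -0.70) and macrophage markers (r = -0.57) and with T cell markers (r = 0.55), Tbk1 with macrophage markers (r = 0.75), and Ddx58 and Ifih1 with endothelial markers (r = 0.67 and 0.54). For Irf7 and plasmacytoid dendritic cell markers r was 0.42. Irf7 (7.87), the mean log2 of T cell markers (6.78) and that of plasmacytoid dendritic cell markers (7.08) were all highest in hIgG1 mouse 8. The plasmacytoid dendritic cell list holds Ccr9, which was 6.588 in that lung. Ccr9 was 3.64 to 4.45 in the other hIgG1 lungs and 3.54 to 4.01 in antiChemR23 lungs. It was at the lowest value of the lung in hIgG1 mice 3, 4 and 6 and antiChemR23 mice 9, 10, 14 and 15. The mean of that list was not taken without Ccr9. The r of Irf7 with the T cell and plasmacytoid dendritic cell lists was not taken without hIgG1 mouse 8. All these correlations are descriptions over 11 lungs, and the part of cell content in the values of the sensing genes was not tested.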

How the data were processed

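RNA from 11 lungs (6 antiChemR23, 5 hIgG1, each a separate mouse) was used at 50 ng per nCounter Sprint run. The values of the 770 genes are log2 normalized counts as deposited by the authors, who used nSolver. The sources used here give neither its settings nor a batch, and DESeq2 is named by the authors for standardized counts. No count model was fitted to log2 values. Raw counts were estimated from the steps between low values (100% whole within 0.1), and intervals from them cover counting error only.

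The deposited log2 values were compared with limma 3.58.1 (R 4.3.3; linear fit, then eBayes with a mean trend) for the 657 genes whose mean reached 20 normalized counts, with Benjamini-Hochberg adjustment over all 657. Correlations used 100000 permutations, or all permutations for fewer than 10 lungs and within groups, in Python 3.11.15 with scipy 1.17.1. The r was taken for each of the 28 pairs of members. The test was tried on simulated data first. Promoter sequences and symbols came from RefSeq tables (GRCm38.p6). Genes named were the 8 members, up to 3 of each list with the smallest p, the 4 pairs with the largest r in size, and the 5 genes most like the most variable member. Values of some markers so named are left out of the text. Members and lists were chosen with earlier results of these data known. Alternatives were the filter (none, or a minimum of 50), log2(value + 10), 1 common lowest value, equal medians, quantile normalization, array weights, robust eBayes, the exact Mann-Whitney test and leaving out each lung.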

Additional observations from a re-analysis of the deposited data

Results flagged for a closer look

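None of the 16 groups of lungs of the 8 sensing genes held a lung far from the others. Among the 98 groups of the genes named by the rules, 5 did by the critical value of Dixon, which chance passes in about 1 in 20. Nlrp3 was 6.835 log2 normalized counts in antiChemR23 mouse 16, against 6.17 to 6.32 in the other antiChemR23 lungs. Muc1 was 11.77 in antiChemR23 mouse 15, against 11.4 to 11.5 in the others of its group. In hIgG1 mouse 8, the lung with the most Irf7, the T cell gene Cd8a was 6.962 and the chemokine receptor gene Ccr9, listed here as a plasmacytoid dendritic cell marker and also found on T cells, was 6.588, against 4.32 to 4.76 for Cd8a and 3.64 to 4.45 for Ccr9 in the other hIgG1 lungs. Ccr9 was at the lowest value of the lung in hIgG1 mice 3, 4 and 6. The low end of its range in the other hIgG1 lungs is therefore a floor and no measured level. Its mean over the 11 lungs lay just above the filter for tested genes. Mmp9, a neutrophil protease, was 9.502 in hIgG1 mouse 6, against 9.85 to 9.99 in the other hIgG1 lungs.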

How the results depend on the processing

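All 8 sensing genes kept the direction of their difference under every alternative that was run, and none reached an adjusted p of 0.05. Tmem173 was not tested at a minimum mean of 50. Equal medians, quantile normalization and array weights each gave 2 sensing genes at an unadjusted p under 0.05, Ikbke and Tmem173, against Ikbke alone. Leaving out 1 lung gave 0 to 2, and 0 without hIgG1 mouse 3, 6 or 7 or antiChemR23 mouse 10, 13 or 15. Irf7 was among them without hIgG1 mouse 4, Irf3 alone without antiChemR23 mouse 9 and Tmem173 alone without hIgG1 mouse 8. Over all tested genes, quantile normalization gave 1 at an adjusted p under 0.05, and leaving out 1 lung 0 to 3, the most without antiChemR23 mouse 10. The exact Mann-Whitney test gave Tmem173 alone among the sensing genes. Over all tested genes at an unadjusted p there were 41 by that test and 38 to 80 with 1 lung left out, the fewest without antiChemR23 mouse 9. The difference of Oas3 ran from -0.284 to 0.0062 with 1 lung left out, above 0 without hIgG1 mouse 8 (0.00342) and without antiChemR23 mouse 15 (0.0062). The correlation of Tmem173 and Irf7 within groups, whose alternatives were chosen after seeing the data, lost its call with equal medians (0.781), after quantile normalization (0.655) and without the 2 farthest lungs (0.725), and ran from 0.829 to 0.951 with 1 lung left out. It kept the call without antiChemR23 mouse 16 and without hIgG1 mouse 3 or 6, and lost it without any other single lung. Equal medians moved the median difference of all tested genes to 0.04, and quantile normalization to 0.00, against 0.03. No paired analysis was possible because no mouse number occurs in both groups. Depth limits Tmem173 and Ikbke most, and all 5 interferon genes.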
